A study of Mus musculus with 19 samples.

Results

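The 7 genes that encode the insulin-like growth factor (IGF) binding proteins, Igfbp1 to Igfbp7, were taken from a table of 24537 genes by their symbols, and each symbol matched 1 row. RNA had been sequenced from hepatocytes, the metabolic cells that make up most of the liver, isolated by a 2-step liver perfusion from 10 young (5mo, 5 months) and 9 old (24mo, 24 months) mice. All mice were wild-type (WT) males of the strain C57BL/6J, with no treatment given in the labels. The mice were culled on 2 days that lay 23 days apart, with 5 young and 5 old mice on the first and 5 young and 4 old on the second. Each library is named here by its number in the labels and was taken as 1 mouse. The labels do not say outright that each library is a separate animal, and they give neither feeding state nor hour of cull, so p-values measure the spread between these libraries. Perfused hepatocyte isolates can hold other liver cells, and in such bulk RNA fewer cells of a type and less RNA per cell cannot be told apart.

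IGF binding proteins hold IGF-1 and IGF-2 in blood and tissue, extend their life and control their access to the IGF-1 receptor. In plasma most IGF-1 travels in a ternary complex of IGF, IGFBP-3 or IGFBP-5, and the acid-labile subunit made by hepatocytes. In the liver, hepatocytes are the known source of IGFBP-1, which insulin represses and fasting induces, and of IGFBP-2 and IGFBP-4, whereas IGFBP-3 is made by non-parenchymal cells. IGFBP-7 binds IGFs only weakly and is known from vascular and stromal cells. Proteases such as PAPP-A cut IGFBPs and free the ligand.

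The family is arranged partly in neighbouring pairs, given here on the mm10 build with positions counted from 1. Igfbp1 (NM_008341) spans chr11:7197787-7202546 on the plus strand, and Igfbp3 (NM_008343) spans chr11:7206091-7213923 on the minus strand. Their 3′ ends face each other across 3544 bases with no other gene of the table between them. Igfbp2 (NM_008342, chr1:72824480-72852471, plus) and Igfbp5 (NM_010518, chr1:72858065-72874865, minus) form the other tail-to-tail pair, 5593 bases apart. Igfbp4 (NM_010517) lies alone at chr11:99041260-99052643 on the plus strand, Igfbp6 (NM_008344) at chr15:102144186-102149512 on the plus strand and Igfbp7 (NM_008048) at chr5:77349240-77408045 on the minus strand. Igfbp7 overlaps Polr2b, a gene on the opposite strand, by 89 bases, and no other member overlaps a gene of the table.

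The 250 bases before the start of 3 members are shown because these are the genes the results turn on: Igfbp1, whose insulin-responsive promoter is the best known of the family, and Igfbp3 and Igfbp7, the members that rose with age. Sequences are from RefSeq on GRCm38.p6, the same build as mm10, written 5′ to 3′ on the gene's own strand, and capitals mark matches to the motifs searched on both strands.
Igfbp1, chr11:7197537-7197786, plus strand: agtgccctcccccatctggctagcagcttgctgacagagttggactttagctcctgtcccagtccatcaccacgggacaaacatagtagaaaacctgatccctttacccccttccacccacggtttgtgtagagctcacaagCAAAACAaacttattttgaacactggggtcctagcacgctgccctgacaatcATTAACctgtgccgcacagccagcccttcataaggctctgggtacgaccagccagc
Igfbp3, chr11:7213924-7214173, minus strand: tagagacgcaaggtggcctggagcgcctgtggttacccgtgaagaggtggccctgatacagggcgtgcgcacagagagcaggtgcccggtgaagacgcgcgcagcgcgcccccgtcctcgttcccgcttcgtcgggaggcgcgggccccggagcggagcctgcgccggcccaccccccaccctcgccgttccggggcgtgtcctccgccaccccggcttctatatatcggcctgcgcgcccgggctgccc
Igfbp7, chr5:77408046-77408295, minus strand: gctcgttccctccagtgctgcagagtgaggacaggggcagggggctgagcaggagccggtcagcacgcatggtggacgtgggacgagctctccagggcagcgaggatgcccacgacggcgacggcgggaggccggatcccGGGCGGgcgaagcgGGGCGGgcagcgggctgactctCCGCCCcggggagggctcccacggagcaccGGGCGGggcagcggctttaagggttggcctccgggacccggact
The motifs were the insulin response core CAAAACA, the forkhead core GTAAACA, the GC box GGGCGG, the TATA box TATAAA and the HNF1 core GTTAAT. They were found in 5.56%, 3.16%, 32.7%, 12.4% and 6.44% of 32817 promoter windows of the same length, and no matches overlapped in the windows shown. The Igfbp1 window held the insulin response core on its own strand, 108 to 102 bases before the start, and the HNF1 core on the opposite strand. The Igfbp7 window held 4 GC boxes, of which the one written CCGCCC lies on the opposite strand. The Igfbp3 window held none of these letters. The Igfbp3 and Igfbp7 windows were 73.2% and 74.0% G and C, against 53.2% in Igfbp1 and a mean of 53.2% ± 11.6 (SD) over all windows.

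Of the 7 genes, 6 had enough reads to be tested, and 2 of these, Igfbp3 and Igfbp7, were higher in old mice by edgeR's quasi-likelihood test with cull day as a covariate. None was lower. Over all 12269 genes tested, 30.9% passed the same threshold (an adjusted p of 0.05), 16.3% as higher and 14.5% as lower, so 2 of 6 is a share near the background. The other 4 tested members, Igfbp1, Igfbp2, Igfbp4 and Igfbp5, did not pass. Expression is given in CPM, the count of a gene per unit of sequencing depth (depth corrected by trimmed mean of M-values factors), and fold changes are log2 ratios of old to young with their standard errors (SE).

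**Figure D1:**
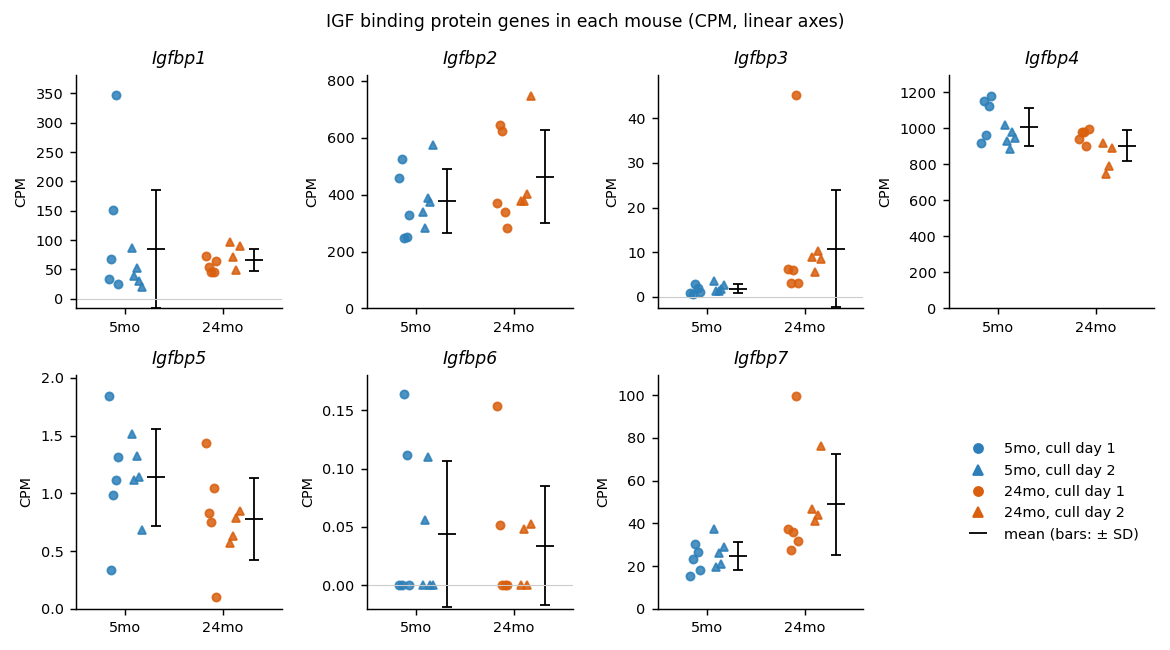
CPM of each IGF binding protein gene (linear y axes) in each mouse, by age and by cull day (circles first, triangles second), with the mean and SD of each age beside the points. The old values of Igfbp3 and Igfbp7 sit mostly above the young ones, with old mouse 1187 highest in both panels, and young mice 1184 and 1186 stand above all others for Igfbp1.

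Levels within the family were compared per exon length, as CPM per kilobase of exon (RPKM). Igfbp4, an inhibitory binding protein, had the highest mean level in both ages, at 489 ± 51.0 RPKM (SD) in the 10 young and 439 ± 41.8 RPKM (SD) in the 9 old mice. Igfbp2, which circulates in binary complexes with IGFs, came next at 285 ± 84.9 RPKM in young and 351 ± 124 in old mice. Igfbp4 exceeded Igfbp2 in all 10 young mice but in 7 of 9 old mice.

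Igfbp1 and Igfbp7 held the middle places and did not keep their order. In young mice Igfbp1 averaged 56.2 ± 66.2 RPKM and Igfbp7 22.2 ± 5.87, with Igfbp1 the higher of them in 8 of 10 mice. In old mice Igfbp7 averaged 43.9 ± 21.3 RPKM and Igfbp1 43.3 ± 12.5, with Igfbp7 the higher in 4 of 9. These neighbours did not differ beyond their spread in either age. Igfbp3 lay far below, at 0.751 ± 0.399 RPKM in young and 4.43 ± 5.39 in old mice. Igfbp5, at 0.195 ± 0.0716 and 0.133 ± 0.0614 RPKM, and Igfbp6, at 0.0344 ± 0.0486 and 0.0266 ± 0.0399, came last. In old mice the values of Igfbp2 did not overlap those of Igfbp7, nor those of Igfbp1 the values of Igfbp3, nor those of Igfbp3 the values of Igfbp5. The first place depends on the length used. The deposited table gives Igfbp4 2.06 kb of exon, and with its longest GENCODE transcript of 3.83 kb its mean over all mice is 250 RPKM instead of 465, below Igfbp2 at 320 by the same measure.

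**Figure D2:**
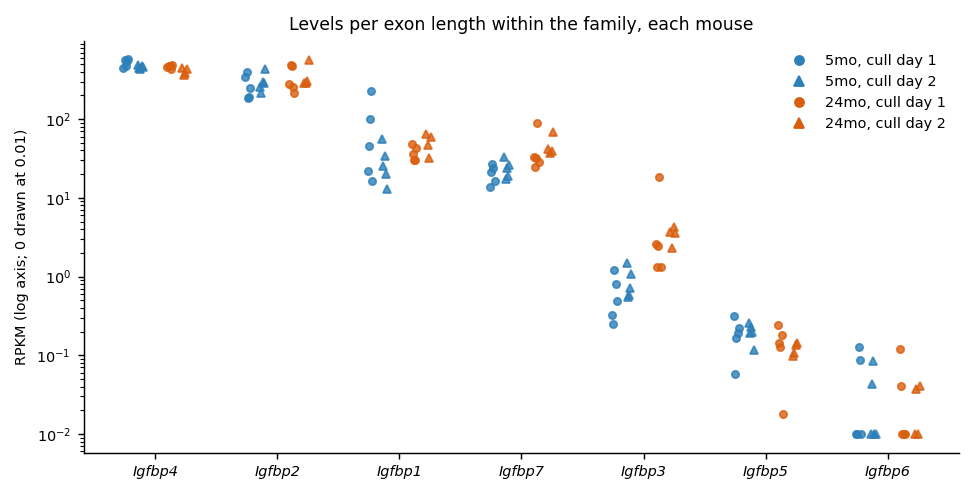
Level of each member per exon length (RPKM, log axis, values of 0 drawn at 0.01) in each mouse, coloured by age with the cull day as the symbol, ordered by mean level. Igfbp4 and Igfbp2 lie highest, Igfbp1 and Igfbp7 overlap in old mice, and Igfbp6 is at or near 0.

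As a share of the summed RPKM of the family, Igfbp4 averaged 57.6% in young and 50.5% in old mice, Igfbp2 33.3% and 38.9%, Igfbp1 6.36% and 5.00%, and Igfbp7 2.62% and 5.04%. Igfbp3 held 0.0893% of the family's RPKM in young and 0.522% in old mice. The summed level was 854 ± 98.7 RPKM in young and 881 ± 139 in old mice (SD). The 2 genes that rose made up a small part of the family's RNA at both ages.

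Igfbp3 encodes the main carrier of IGF-1 in plasma. On the first cull day its level was 0.790, 0.617, 2.95, 1.95 and 1.21 CPM in young mice 1180, 1182, 1184, 1186 and 1188, and 6.25, 3.22, 6.00, 45.2 and 3.23 CPM in old mice 1181, 1183, 1185, 1187 and 1189. On the second cull day it was 3.62, 1.34, 1.43, 1.75 and 2.65 CPM in young mice 1235, 1237, 1239, 1243 and 1244, and 8.90, 5.54, 10.2 and 8.59 CPM in old mice 1236, 1238, 1240 and 1242. Old mice were high on both days, and 7 of 9 lay above every young mouse. Old mice 1183 and 1189 were the exceptions, lying below young mouse 1235 alone. No member had all old mice above all young mice, a separation found in 0.994% of genes tested.

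The mean of Igfbp3 was 1.83 ± 0.970 CPM in young (n = 10) and 10.8 ± 13.1 CPM in old mice (n = 9), which is 2.54 on the log2 scale (SE 0.490, edgeR adjusted p = 0.00128). Mouse 1187 carried much of the mean. Without it the old mean was 6.49 ± 2.58 CPM, 3.55 times the young mean instead of 5.90 times, and the log2 fold change was 1.79 (SE 0.265, edgeR adjusted p = 0.000141). The ratio of medians over all mice was 3.93. Counts were modest, from 11 to 61.5 per library in young and from 62.5 to 1037 in old mice.

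Igfbp7 encodes a secreted protein of vessels and connective tissue. Its level on the first cull day was 15.3, 23.4, 30.2, 26.6 and 18.3 CPM in young mice 1180, 1182, 1184, 1186 and 1188, and 37.3, 27.3, 35.7, 99.5 and 31.7 CPM in old mice 1181, 1183, 1185, 1187 and 1189. On the second cull day it was 37.2, 19.5, 26.3, 21.1 and 29.1 CPM in young mice 1235, 1237, 1239, 1243 and 1244, and 46.9, 41.0, 43.7 and 76.3 CPM in old mice 1236, 1238, 1240 and 1242. The ages overlapped: 6 of 9 old mice lay above every young mouse and 7 of 10 young mice lay below every old mouse. Old mice 1187 and 1242 were the highest.

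The mean of Igfbp7 was 24.7 ± 6.53 CPM in young (n = 10) and 48.8 ± 23.7 CPM in old mice (n = 9), a difference of 1.00 on the log2 scale (SE 0.221, edgeR adjusted p = 0.00323). Without mouse 1187 the log2 fold change was 0.75 (SE 0.159, edgeR adjusted p = 0.00272), and without 1187 and 1242 together it was 0.63 (SE 0.138, edgeR adjusted p = 0.00488). The strand setting of the counting is not given in the sources used here, so reads from the 89 bases shared with Polr2b, which encodes a subunit of RNA polymerase II, cannot be assigned. Polr2b did not rise, with 41.2 CPM in young and 36.7 CPM in old mice (log2 fold change -0.17, SE 0.0638, edgeR adjusted p = 0.0516).

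Within each cull day alone, old mice again had the higher levels of both genes. For Igfbp3 the log2 fold change was 3.07 on the first day (edgeR adjusted p = 0.0611) and 1.95 on the second (edgeR adjusted p = 0.00118). For Igfbp7 it was 1.02 on the first day (edgeR adjusted p = 0.107) and 0.97 on the second (edgeR adjusted p = 0.00835). The first day alone did not carry either call, and only 3.67% of genes passed on that day against 19.3% on the second. The age by cull day interaction passed for 0% of genes (799 had an unadjusted p under 0.05). It was -1.15 (SE 0.942, edgeR adjusted p = 0.898) for Igfbp3 and -0.06 (SE 0.452, edgeR adjusted p = 0.992) for Igfbp7.

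Igfbp3 and Igfbp7 varied together among mice of the same age and cull day. With age by cull day means removed, their log2 CPM had a Pearson correlation of 0.855 over 19 mice (permutation p = 0.00054, adjusted p = 0.00301) and a Spearman rho of 0.779 (permutation p = 0.00054, adjusted p = 0.00421). It was 0.776 without the farthest mice, 1187 and 1242. It was 0.922 in the 10 mice of the first day and 0.647 in the 9 mice of the second. This was 1 of 39 relations examined, and the only one of 15 pairs of members with an adjusted Pearson p under 0.05. Igfbp1 and Igfbp3, neighbours on chromosome 11, and Igfbp2 and Igfbp5, neighbours on chromosome 1, did not reach it.

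The genes whose pattern within groups was most like each of these 2, by Pearson correlation over 19 mice among 11612 genes of at least 1 CPM, were Il10rb (0.983), Filip1l (0.956) and Mndal (0.955) for Igfbp3. Il10rb encodes a chain of the interleukin-10 receptor. For Igfbp7 they were Klf2 (0.965), a transcription factor of endothelium and lymphocytes, Cxcl16 (0.958), a chemokine, and Gimap6 (0.953), a GTPase of immune cells. All 6 of these genes were higher in old mice, with log2 fold changes from 1.00 for Gimap6 (edgeR adjusted p = 0.00146) to 1.497 for Filip1l (edgeR adjusted p = 0.0215).

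Markers of other liver cells moved with both genes. Hepatocyte markers dominated every library, with 11 genes summing to 96599 to 155793 CPM in young and 120385 to 199870 CPM in old mice, but markers of other cells were present throughout. Of 14 stellate cell markers, 14 were higher in old mice, among them Lrat, Cygb and Reln, and their summed level ran from 52.6 to 142 CPM in young and from 151 to 533 CPM in old mice. Of 14 endothelial markers 10 were higher, among them Fcgr2b, Kdr and Clec4g, with sums of 239 to 459 and 257 to 778 CPM. Of 14 macrophage markers 13 were higher, among them Lyz2, Marco and Cd68, with sums of 154 to 707 and 93.9 to 3827 CPM, the last in mouse 1187. None of these 42 markers was at 0 in every library. Of 8 portal fibroblast and smooth muscle markers 1 was tested and 0 passed, with sums of 1.90 to 5.83 and 3.00 to 11.3 CPM, and the 6 mesothelial markers summed to under 1 CPM in every mouse and could not be tested.

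Within age and day, Igfbp3 had Pearson correlations of 0.896 with the stellate score (rho 0.856, permutation p = 0.00021, adjusted p = 0.00136), 0.883 with the macrophage score (rho 0.853) and 0.849 with the endothelial score (rho 0.807), the last 2 with a permutation p of 0.00011 each (adjusted 0.000858). The score is the mean log2 CPM of a marker list. Igfbp7 had correlations of 0.918 with the endothelial score (rho 0.926, permutation p = 1e-05, the smallest the permutations can give, adjusted p = 0.00039), 0.863 with the stellate score (rho 0.758, permutation p = 6e-05) and 0.863 with the macrophage score (rho 0.737, permutation p = 0.0001), both 0.000858 after adjustment. For rho the adjusted permutation p of these 6 relations ran from 0.00078 to 0.00975. Without the 2 farthest mice these 6 correlations ran from 0.722 to 0.878. On the first cull day they ran from 0.889 to 0.924, and on the second from 0.691 to 0.929.

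**Figure D3:**
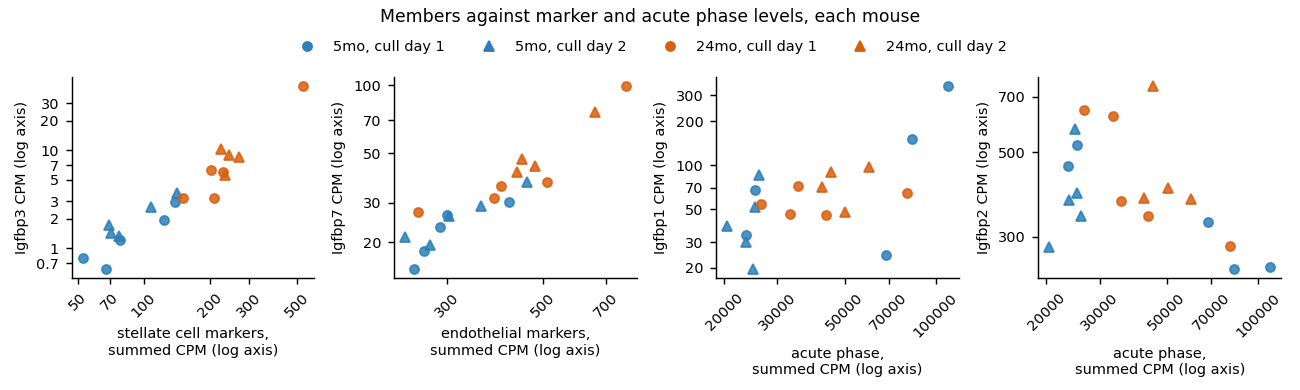
Igfbp3 against summed stellate markers, Igfbp7 against summed endothelial markers, and Igfbp1 and Igfbp2 against summed acute phase genes, in CPM on log axes, each point 1 mouse. Igfbp3 climbs with the stellate sum from young to old mice with mouse 1187 at the top, and young mice 1184 and 1186, the highest on the acute phase axis, have the lowest Igfbp2.

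The age difference of both genes was refitted with each score as a covariate. With the combined other-cell score (stellate, endothelial and macrophage) the log2 fold change of Igfbp3 was 0.86 (SE 0.261, edgeR adjusted p = 0.0377) and that of Igfbp7 0.24 (SE 0.128, edgeR adjusted p = 0.219), while 12% of all genes passed. With the stellate score alone Igfbp3 was at -0.27 (SE 0.324, edgeR adjusted p = 0.643) and Igfbp7 at -0.24 (SE 0.203, edgeR adjusted p = 0.485), while 7.76% of all genes passed. With the macrophage score alone both still passed, at 1.35 (SE 0.265, edgeR adjusted p = 0.00197) and 0.49 (SE 0.128, edgeR adjusted p = 0.0124). With the endothelial score Igfbp3 passed at 1.12 (SE 0.287, edgeR adjusted p = 0.0181) and Igfbp7 did not at 0.33 (SE 0.110, edgeR adjusted p = 0.0614). The scores themselves differ between the ages, and which cells carried the added Igfbp3 and Igfbp7 RNA was not tested.

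**Figure D4:**
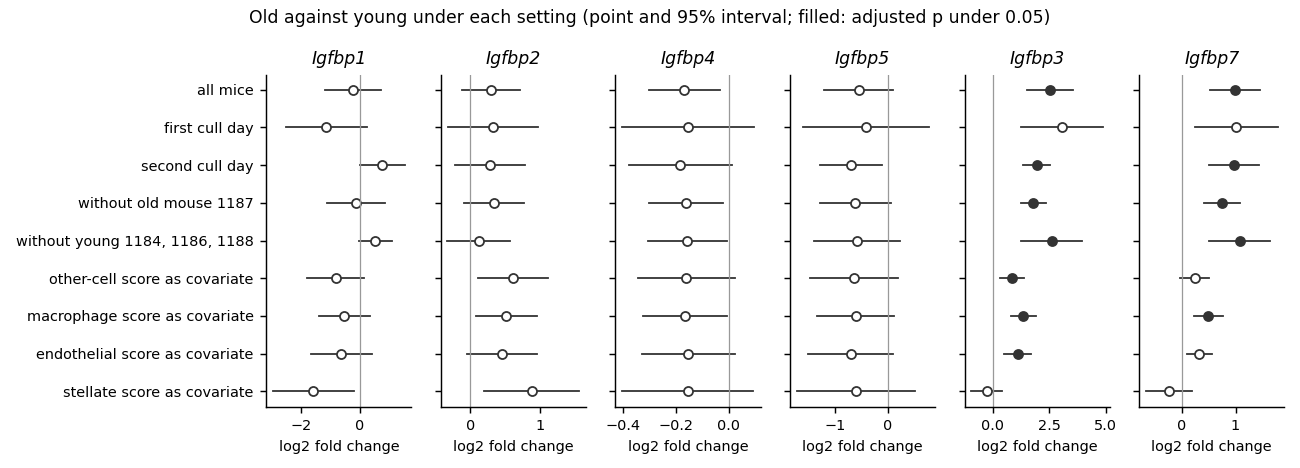
Log2 fold change of old against young for the 6 members tested (x axes, point with 95% interval, filled where the adjusted p is under 0.05) over all mice, within each cull day, without named mice and with marker scores as covariates. Igfbp3 and Igfbp7 lie right of 0 except with the stellate score, and Igfbp1 lies on both sides of 0.

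Igfbp1 encodes the binding protein that insulin represses. On the first cull day its level was 33.7, 68.2, 150.6, 347.6 and 24.5 CPM in young mice 1180, 1182, 1184, 1186 and 1188, and 72.5, 54.4, 46.2, 45.7 and 64.8 CPM in old mice 1181, 1183, 1185, 1187 and 1189. On the second it was 85.8, 38.6, 52.1, 30.0 and 19.7 CPM in young mice 1235, 1237, 1239, 1243 and 1244, and 96.9, 70.8, 48.4 and 90.0 CPM in old mice 1236, 1238, 1240 and 1242. Mice 1184 and 1186 were above every old mouse, yet 5 of 10 young mice were below every old mouse. Young mice spread over 19.7 to 347.6 CPM, while old mice stayed within 45.7 to 96.9 CPM, and all 9 old mice lay above the young median of 45.4 CPM.

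Accordingly the mean and the median of Igfbp1 pointed opposite ways. The mean was 85.1 ± 100.2 CPM in young (n = 10) and 65.5 ± 18.9 CPM in old mice (n = 9), whereas the ratio of medians, old to young, was 1.43. The log2 fold change over all mice was -0.23 (SE 0.453, 95% interval -1.18 to 0.71, edgeR adjusted p = 0.722). Without 1184 and 1186 the young mean was 44.1 ± 23.0 CPM and the log2 fold change was 0.61 (SE 0.260, edgeR adjusted p = 0.0864). By cull day it was -1.14 (SE 0.620, edgeR adjusted p = 0.259) on the first and 0.76 (SE 0.348, edgeR adjusted p = 0.154) on the second, and the interaction of age with cull day was 1.90 (SE 0.785, unadjusted p = 0.0262 by edgeR, adjusted p = 0.708). No direction with age was established for this gene.

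Mice 1184 and 1186, with mouse 1188, also stood apart from the other young mice, though not from every old mouse, in the acute phase genes, the plasma proteins that the liver makes in inflammation. The 15 genes summed to 83650 CPM in 1184, 109796 in 1186 and 68292 in 1188, against 20449 to 26064 CPM in the other young and 26533 to 80629 CPM in the old mice, the last in mouse 1189. None of the 15 passed the test for age, and 1 had an unadjusted p under 0.05. Igfbp1 did not track them evenly, since mouse 1188 had 24.5 CPM of it. Within age and day the Pearson correlation of Igfbp1 with the acute phase score was 0.490 (rho 0.354, permutation p = 0.246, adjusted p = 0.505), and 0.105 without mice 1180 and 1186. The genes most like Igfbp1 were Irf2bp2 (0.789), Irs2 (0.780), which encodes an insulin receptor substrate, and Plk3 (0.776), which encodes a stress-responsive kinase.

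Igfbp2 encodes the second abundant binding protein of the hepatocyte. Its level ran from 246.7 CPM through a median of 357.2 to 573.9 in young mice and from 284.1 through 378.9 to 747.4 in old mice. The ages overlapped widely, and the 3 old mice above every young mouse were 1183, 1185 and 1242, at 644.6, 624.3 and 747.4 CPM. The log2 fold change was 0.30 (SE 0.199, 95% interval -0.11 to 0.72, edgeR adjusted p = 0.254). It was 0.18 without old mouse 1242, 0.12 without young mice 1184, 1186 and 1188, 0.61 with the other-cell score and 0.89 with the stellate score, short of the threshold each time. The interaction with cull day was -0.05 (SE 0.409, edgeR adjusted p = 0.994).

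In contrast to Igfbp1, Igfbp2 was lower where acute phase genes were higher. Within age and day the Pearson correlation was -0.704 (permutation p = 0.00245, adjusted p = 0.0119) and the Spearman rho -0.682 (permutation p = 0.00832, adjusted p = 0.0381), and the correlation was -0.691 without mice 1180 and 1186. It was -0.856 in the 10 mice of the first day and only -0.306 in the 9 of the second, where the acute phase sums ran from 20449 to 60162 CPM instead of 23546 to 109796 CPM. Young mice 1184 and 1186 had the lowest Igfbp2 of all, at 246.7 and 249.5 CPM. Among the 3 genes most like Igfbp2 were Oxld1 (0.873) and 2510002D24Rik (0.868).

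The ratio of Igfbp2 to Igfbp1 in a mouse does not depend on library scaling. Its log2 value was 2.69 ± 1.58 in young mice (n = 10), from -0.478 to 4.86, and 2.80 ± 0.625 in old mice (n = 9), from 1.96 to 3.75. The stratified difference, old minus young, was 0.09 (exact two-sided permutation p = 0.878 over 31752 relabellings within cull days). Within days, the first gave 0.80 (p = 0.452 by the same exact test) and the second -0.63 (p = 0.373, exact). The only mouse with more Igfbp1 than Igfbp2 by this measure was young mouse 1186.

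Igfbp4, an inhibitor of IGF action that PAPP-A cleaves, was the steadiest member. It ran from 882.0 CPM through a median of 969.9 to 1179 in young mice and from 748.0 through 915.9 to 995.9 in old mice, with an SD of 10.4% of the mean in young and 9.53% in old mice. Values overlapped, with 4 young mice above every old mouse and old mice 1238 and 1240, at 748.0 and 787.5 CPM, below every young mouse. The log2 fold change was -0.17 (SE 0.0643, 95% interval -0.30 to -0.03, edgeR adjusted p = 0.0526), which missed the threshold. It passed with DESeq2 size factors (edgeR adjusted p = 0.0384), with DESeq2 itself (adjusted p = 0.0062) and with limma-voom (adjusted p = 0.0282), at -0.18 in each. It also passed by edgeR when 1 mouse was left out, whether 1180 (adjusted p = 0.0377), 1184 (0.0400), 1189 (0.0494) or 1236 (0.0451). It stayed short of the threshold under 28 of 37 alternative settings. Among these were library totals alone (-0.13, edgeR adjusted p = 0.141), no cull day term (-0.16, edgeR adjusted p = 0.131) and the first and second cull day alone (edgeR adjusted p = 0.403 and 0.177). The genes most like Igfbp4 were Tsg101 (0.763), H13 (0.755) and Zdhhc12 (0.750).

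Igfbp5, which like Igfbp3 can form the ternary complex, was near the limit of detection. Young mice ran from 0.336 CPM through a median of 1.13 to 1.84, and old mice from 0.104 through 0.787 to 1.43, on 6 to 35 and 2 to 27.5 counts. The ages overlapped, with 8 of 9 old mice below the young median. The log2 fold change was -0.55 (SE 0.313, 95% interval -1.20 to 0.10, edgeR adjusted p = 0.188). The genes most like it were Gm10677 (0.805), Aldh1b1 (0.788), which encodes a mitochondrial aldehyde dehydrogenase, and A830080D01Rik (0.783). Igfbp6, whose product prefers IGF-2, had 0 to 3 counts in every library, with no count in 6 of 10 young and 5 of 9 old mice. It was at or under the floor of 3 counts, was not tested, and gets no fold change.

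The ligands and the plasma carrier did not pass. Igf1, the IGF made in bulk by hepatocytes, averaged 455 CPM in young and 482 CPM in old mice (log2 fold change 0.08, SE 0.0820, edgeR adjusted p = 0.455). Igfals, which encodes the acid-labile subunit, averaged 87.5 and 85.5 CPM (0.02, SE 0.162, edgeR adjusted p = 0.948). Igf2, a fetal growth factor with little expression in adult mouse liver, averaged 0.0606 and 0.347 CPM and had too few reads to test.

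Among the receptors, Igf1r, the receptor through which IGFs signal, was higher in old mice from a very low level, 0.681 CPM in young and 1.52 CPM in old mice (log2 fold change 1.16, SE 0.242, edgeR adjusted p = 0.00224). A gene this low can pass the read filter through the group where it is higher, so this call is a description. The stellate, endothelial and macrophage markers were higher in the same mice. With the stellate score as a covariate, where 7.76% of all genes passed, Igf1r was at 0.10 (SE 0.307, 95% interval -0.54 to 0.74, edgeR adjusted p = 0.866). It was still called with the macrophage score, at 0.73 (SE 0.195, edgeR adjusted p = 0.0153). It was not called with the endothelial score, at 0.58 (edgeR adjusted p = 0.0690), or the other-cell score, at 0.51 (edgeR adjusted p = 0.123). The part of other cells in the Igf1r difference was not tested. Insr, the insulin receptor, had 119.7 and 113.1 CPM (-0.09, SE 0.110, edgeR adjusted p = 0.548). Igf2r, which clears IGF-2, had 42.3 and 35.8 CPM (-0.27, SE 0.102, edgeR adjusted p = 0.0510). Ghr, the growth hormone receptor that drives Igf1 and Igfals, had 445 and 381 CPM (-0.23, SE 0.108, edgeR adjusted p = 0.116), and 0 of 9 tested genes of growth hormone signalling passed, with 1 at an unadjusted p under 0.05.

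Of 9 proteases that cut IGFBPs and their inhibitors, 4 had enough reads to be tested, and these 4 were called higher in old mice. Over all genes tested, 16.3% were called higher. Mmp14, a membrane-bound metalloproteinase, went from 36.9 to 69.7 CPM (0.90, SE 0.125, edgeR adjusted p = 9.35e-05). Adamts1 went from 4.98 to 9.75 CPM (0.96, SE 0.139, edgeR adjusted p = 0.00014). Mmp2 (0.296 CPM in young and 0.633 in old mice) and Htra1 (0.486 and 0.820 CPM) were called below 1 CPM. Genes this low can pass the read filter through the group where they are higher, so the count of calls among tested proteases is a description. With a filter of at least 1 CPM in 9 libraries, 22 pathway genes were tested instead of 25 and 3 instead of 6 were called higher. Pappa and Stc2, the protease PAPP-A and one of its inhibitors, were at 0 in every library. Of 4 cell surface partners, 1 passed: Itga5, an integrin chain bound by IGFBP-1 (0.28, SE 0.0905, edgeR adjusted p = 0.0254). Like Igf1r, the genes called here rose beside the markers of other cells: pathway genes called higher numbered 6 with no covariate, 3 with the macrophage score, 2 with the other-cell or the endothelial score and 0 with the stellate score. Over all genes, higher calls in the same fits went from 2005 to 1142, 740 (other-cell), 674 (endothelial) and 389, so the drop is not particular to the pathway. With the stellate score Mmp14 was at 0.57 (SE 0.208, 95% interval 0.14 to 1.01, edgeR adjusted p = 0.0886) and Adamts1 at 0.40 (SE 0.208, 95% interval -0.04 to 0.84, edgeR adjusted p = 0.234). Both stayed called with the other-cell, endothelial and macrophage scores. In that order Mmp14 was at 0.74, 0.79 and 0.81 and Adamts1 at 0.66, 0.74 and 0.77 (edgeR adjusted p from 0.000504 to 0.0101). The part of other cells in these differences was not tested.

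Downstream, 4 of 12 genes of IGF and insulin signal transduction were lower in old mice and 0 higher, a share of calls near the 30.9% of all genes (14.5% lower). Foxo3 went from 11.5 to 6.96 CPM (-0.72, SE 0.196, edgeR adjusted p = 0.0109). Foxo1, the factor known to act through the insulin response element of Igfbp1 shown above, went from 25.5 to 20.8 CPM (-0.31, SE 0.0938, edgeR adjusted p = 0.0176). Pik3r1, a regulatory subunit of PI3-kinase, stood at -0.31 (SE 0.0964, edgeR adjusted p = 0.0217), and Grb14 was the remaining one. These calls were unsteady. Over all 25 pathway genes tested, those called lower numbered 4 in all mice, 1 when scaled by library totals alone, 0 on each cull day alone, 0 with the endothelial score and 1 with the other-cell score. Those called lower numbered 7 with DESeq2 size factors and 8 with DESeq2. Without young mouse 1180 they numbered 2, without old mouse 1189 or young mouse 1243 they numbered 7, and without 1187 and 1242 together 1. Over the 5 pathway lists, 10 of 25 tested genes passed (40%), of 31 listed, beside 30.9% of all genes. The share was 28% with library totals alone and 27.3% with the filter of at least 1 CPM. It was 48.3% with no filter, 52% with DESeq2 size factors and 56% with DESeq2. Over all 12269 genes, 3270 were called with library totals alone, 3875 with DESeq2 size factors and 4114 with DESeq2. The pathway share thus moved with the processing, and whether it differs from the background was not tested.

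**Figure D5:**
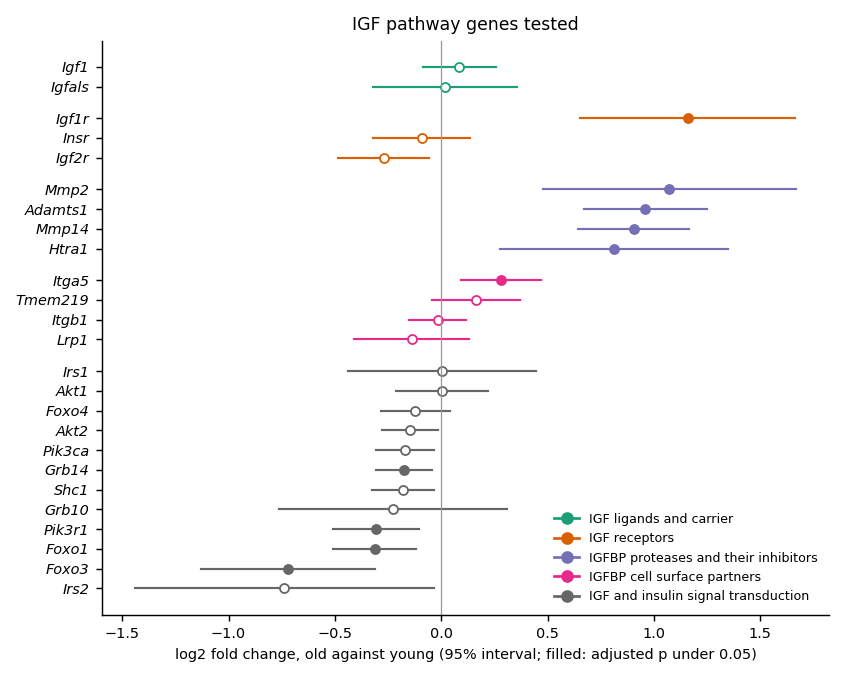
Log2 fold change of old against young with its 95% interval for each IGF pathway gene tested, grouped by role and filled where the adjusted p is under 0.05. The 4 proteases lie right of 0, and the 4 filled signal transduction genes lie left of 0.

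Relatives that share the IGFBP-type domain without being members were also examined. Of 11, 7 were tested, and 5 of these were called higher and 0 lower, beside 16.3% higher and 14.5% lower over all genes tested. The 5 include Htra1, already counted among the proteases, and low genes that can pass the read filter through the old mice, so this count too is a description. Esm1, an endothelial proteoglycan, averaged 0.149 CPM in young mice, near the floor of 3 counts, and 4.12 ± 4.82 CPM (SD) in old mice (edgeR adjusted p = 7.43e-05), and no fold change is given. Ctgf, a matrix protein of stromal cells, went from 0.925 ± 0.496 to 5.12 ± 4.88 CPM (2.41, SE 0.460, edgeR adjusted p = 0.0012). Its old values were widely spread, with an SD near their mean. Wisp1 went from 0.728 ± 0.297 to 1.51 ± 0.530 CPM (1.02, SE 0.225, edgeR adjusted p = 0.00309). The cell markers described beside Igfbp3 and Igfbp7 were higher in the same old mice, and their part in these differences was not tested.

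Igfbp1 is known to respond to insulin, fasting and cellular stress, and 2 lists of such genes were near or below the 30.9% of all genes called. Of 11 insulin and fasting responsive genes, 1 was higher and 1 lower: Pdk4, a kinase that spares glucose in fasting (1.17, SE 0.321, edgeR adjusted p = 0.0112), and Pck1, a gluconeogenic enzyme (-0.50, SE 0.161, edgeR adjusted p = 0.0243). Of 8 integrated stress response genes, Ddit3 (0.50, SE 0.154, edgeR adjusted p = 0.0203) and Atf3 (1.22, SE 0.430, edgeR adjusted p = 0.0374) were higher and Asns (-1.18, SE 0.430, edgeR adjusted p = 0.0438) lower.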

How the data were processed

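The authors deposited their estimated counts as 1 table with a column for each of 19 libraries. It was written, per the file headers, by HOMER's analyzeRepeats.pl on mm10, counting exons, condensing transcripts to genes and leaving counts raw, and the submitters' processing notes also name STAR and GRCm38. The strand setting and software versions are not given in the sources used here. Values were multiples of 0.5 and 29.2% of them were not whole, so they were rounded (ties to even) before count tests, although the tests had been chosen for plain counts. Totals over genes ran from 17381439 to 20287628.5, and 3 counts were taken as the floor.

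Age was tested with edgeR 4.0.16 (R 4.3.3) by quasi-likelihood, with TMM scaling, filterByExpr by age, cull day as covariate and Benjamini-Hochberg adjustment over 12269 genes. On simulated data of 12196 genes for this comparison it recovered 84.2% of changes of 1 and 99.0% of changes of 2 on the log2 scale. DESeq2 1.42.0 and limma 3.58.1 served as alternatives. RPKM used the deposited exon lengths. Relations between mice used residuals from age by cull day means and 100000 permutations within those groups. No library pair of the same age agreed within sampling noise (81 pairs).

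Named genes were all members, Igf1, Igf2, Igfals, Igf1r, Igf2r, Insr and Ghr, up to 3 higher and 3 lower called genes of at least 1 CPM in each other list by smallest p, and the 3 genes most correlated with each member, of which 1 is not reported here. Mmp2, Htra1, Grb14, Pappa, Stc2 and Polr2b were named after their values were seen. Members and lists were chosen with earlier results of these data known. Of the lists whose calls are not given elsewhere, 2 of 11 hepatocyte markers were higher and 4 lower, and 1 of 3 tested cholangiocyte markers was higher.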

Additional observations from a re-analysis of the deposited data

Results flagged for a closer look

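In each age group the highest and lowest mouse of each of the 7 genes was compared with its nearest neighbour by Dixon's gap test, over 14 groups. Chance marks about 1 in 20 where values are normally distributed. The test was run on untransformed CPM, and Igfbp6 was at 0 in 5 of 9 old mice, so that rate may not hold here. Igfbp1 in young mouse 1186 stood apart from the other young mice at 347.572 CPM, with a gap of 0.601 of the group's range. Igfbp3 in old mouse 1187 stood apart from the other old mice at 45.2271 CPM, with a gap of 0.833 of the range, in the library that also held the highest macrophage and stellate marker sums. Igfbp6 in old mouse 1181 stood apart at 0.153598 CPM, which is 3 counts and within the floor.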

How the results depend on the processing

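Igfbp2 and Igfbp5 kept their direction and stayed short of the threshold under all 37 alternatives, with Igfbp2 between 0.12 (without 1184, 1186 and 1188) and 0.89 (stellate score). Igfbp3 and Igfbp7 stayed higher and called except on the first cull day alone (3.07 and 1.02, not called), with the stellate score (-0.27 and -0.24) and, for Igfbp7, with the other-cell (0.24) and endothelial (0.33) scores. Igfbp1 reversed with limma-voom (0.38), on the second day (0.76), without 1184, 1186 and 1188 (0.52) and without 1184 and 1186 (0.61). It moved further below 0 with the other-cell score (-0.83, SE 0.468, edgeR adjusted p = 0.249) and the stellate score (-1.58, SE 0.654, edgeR adjusted p = 0.133), not called in either. Igfbp4 passed with DESeq2 size factors (-0.18), no filter (-0.20), DESeq2 (-0.18), limma-voom (-0.18) and the totals in the column names (-0.18), and without 1180, 1184, 1189 or 1236 alone. Under the other 28 of 37 alternatives Igfbp4 kept its direction and did not pass. The Igfbp2 to Igfbp1 ratio reversed on the second day (-0.63) and without 1184, 1186 and 1188 (-0.52). The level of Igfbp4 by longest transcript was 250 RPKM.

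Members called numbered 0 on the first day, 1 with the other-cell score, 0 with the stellate score and 1 with the endothelial score. Genes called overall were 450 on the first day, 2388 on the second, 1467 with the other-cell, 952 with the stellate, 1263 with the endothelial and 2236 with the macrophage score, and 2349 without 1187 and 1242, against 3785. IGF pathway genes called were 6 with at least 1 CPM in 9 libraries, 3 on each day, 3, 2, 2 and 5 with those scores in the same order, and 5 without 1187 and 1242, against 10. Of all calls, 53.0% were higher, and 64.2% with library totals alone, where the pathway lists had 6 higher and 1 lower instead of 6 and 4; DESeq2 gave 6 and 8.

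Leaving out each mouse in turn gave 3014 to 3949 genes, 2 to 3 members and 8 to 13 pathway genes called, and log2 fold changes of -0.39 to 0.24 for Igfbp1 (positive without 1186), 0.18 to 0.39 for Igfbp2, -0.70 to -0.41 for Igfbp5, -0.19 to -0.14 for Igfbp4, 1.79 to 2.69 for Igfbp3 and 0.75 to 1.07 for Igfbp7. The ratio ran from -0.24 to 0.29, and the interaction was called for 0 to 1 genes. The cause of these shifts was not tested. The totals in the column names and the removals of 1187 with 1242 and of 1184 with 1186 were chosen after seeing the data. No paired analysis was possible because the library numbers are not shared between the ages. Depth limits Igfbp5 and Igfbp6.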
